A study of Caenorhabditis elegans with 2 samples.

Results

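Binding of CEH-82 was examined at 7 genes that act at the start of sex determination in Caenorhabditis elegans, which were xol-1, sex-1, fox-1, ceh-39, sea-1, sea-2 and her-1. They were taken by gene symbol from the Ensembl annotation of the WBcel235 assembly, in which they are 7 of 19973 protein-coding genes. Of the 7, 4 lie on X (xol-1, sex-1, fox-1 and ceh-39) and 3 on autosomes (sea-1 and sea-2 on chromosome II, her-1 on chromosome V). CEH-82 is the homeodomain protein encoded by F45C12.2, and its binding was measured by chromatin immunoprecipitation followed by sequencing (ChIP-seq). The 2 biological replicates formed 1 group. They were whole L1 larvae, the first larval stage, of strain OP212 (unc-119(ed3) III; ddEx58), pooled from males and females. This transgenic line expressed F45C12.2 fused at its C-terminus to GFP-FLAG. The labels speak of an insertion although the ddEx58 in the genotype denotes an extrachromosomal array, and ceh-82 stands in the antibody field of a line tagged with GFP-FLAG. Which copy carried the tag, and what the antibody recognised, are therefore not known here. The sources used here give neither the share of males nor the age in hours. The authors made the peak list of each replicate against a control alignment. No untagged or mock ChIP was analysed here, so none of the signal below could be set against a background ChIP in this report.

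In this animal, sex follows the number of X chromosomes relative to sets of autosomes. Proteins made from X, called X-signal elements, repress xol-1 in XX embryos, and autosomal signal elements activate it. XOL-1 is the switch that sets male development and keeps dosage compensation of X off, and HER-1 is a secreted signal that acts further down the pathway towards male fate. These decisions are taken in the embryo, whereas the ChIP was done on larvae, and the files hold no measure of the genes' expression.

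The authors' optimal list, derived from both replicates by the irreproducible discovery rate, held 2346 peaks. It was read together with a longer, relaxed list of 20459 peaks from the pooled replicates and with relaxed lists of 30000 peaks for each replicate, which include background by design. Each peak had a summit and a signal, which the authors computed and whose units are not stated. Signal served only to describe and rank peaks within a list. Depth was unknown, because the peak lists give no read counts, and the only measure of error for a peak was its rank in each replicate.

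Of the 2346 optimal summits, 8 lay within 10 kb of one of the 7 genes. The sequences of 4 of them are shown because they hold the strongest peak (xol-1), the only peak at the annotated start of one of the genes (ceh-39) and the peaks of the 2 autosomal genes that had one (sea-2 and her-1). Each is 300 bases around the summit, ce11, read 5′ to 3′ on the strand of the named gene, and the capitals mark the words that were searched for. The order of the lines is xol-1 at chrX:8036268-8036567 on the plus strand, ceh-39 at chrX:1856246-1856545 on the minus strand, sea-2 at chrII:3958798-3959097 on the plus strand and her-1 at chrV:9704446-9704745 on the plus strand.
xol-1: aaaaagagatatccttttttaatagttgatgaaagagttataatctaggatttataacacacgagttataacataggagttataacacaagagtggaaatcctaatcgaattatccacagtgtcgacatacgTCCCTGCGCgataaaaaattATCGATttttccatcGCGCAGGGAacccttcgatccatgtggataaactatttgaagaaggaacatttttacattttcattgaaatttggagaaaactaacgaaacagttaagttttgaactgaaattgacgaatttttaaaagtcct
ceh-39: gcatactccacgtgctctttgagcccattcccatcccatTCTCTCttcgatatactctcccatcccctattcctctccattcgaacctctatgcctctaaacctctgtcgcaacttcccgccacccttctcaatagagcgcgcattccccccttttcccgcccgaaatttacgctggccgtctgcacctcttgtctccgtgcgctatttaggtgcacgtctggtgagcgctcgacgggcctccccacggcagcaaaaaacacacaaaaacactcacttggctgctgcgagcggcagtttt
sea-2: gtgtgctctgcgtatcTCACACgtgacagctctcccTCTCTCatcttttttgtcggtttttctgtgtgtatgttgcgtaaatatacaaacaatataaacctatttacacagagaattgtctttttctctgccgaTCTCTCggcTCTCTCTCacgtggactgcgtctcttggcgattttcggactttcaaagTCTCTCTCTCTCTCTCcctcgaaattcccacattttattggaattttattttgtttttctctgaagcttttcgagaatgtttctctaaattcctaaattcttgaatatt
her-1: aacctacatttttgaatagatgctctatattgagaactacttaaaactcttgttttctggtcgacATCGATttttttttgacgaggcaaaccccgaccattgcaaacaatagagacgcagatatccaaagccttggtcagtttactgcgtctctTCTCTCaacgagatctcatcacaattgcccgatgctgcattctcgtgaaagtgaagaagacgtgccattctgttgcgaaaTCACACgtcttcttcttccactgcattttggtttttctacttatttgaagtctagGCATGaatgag

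The xol-1 window carried 3 marked words, all beginning within 18 bp of the summit. An ATCGAT, a core recognised by ONECUT homeodomain proteins, began 2 bp after the summit. It stood between 2 copies of GCGCAGGGA in opposite orientation, which began 18 bp before and 17 bp after the summit. GCGCAGGGA is the core of a motif known from sites on X that recruit the dosage compensation complex. It was searched for only after this window had been read, and it was present in 19 of the 2346 windows of the optimal list (0.810%). In the ceh-39 window the capitals mark a match to GAGAGA on the other strand. The sea-2 window has a T-box half-site near its left end and GAGAGA matches on both sides of the summit, densest from 41 bp to its right. The her-1 window has an ONECUT core to the left of the summit, then a GAGAGA match, a T-box half-site and, near its right end, the RBFOX word.

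An optimal summit lay within 10 kb of 6 of the 7 genes, and of 4 of the 4 on X, against 40.8% of all protein-coding genes and 41.7% of those on X. The gene without any was sea-1. Within 500 bp of the annotated start, on either side, the count was 1 of 7 (ceh-39), and 1 of 4 on X, against 8.18% of all protein-coding genes and 5.71% of those on X. With 7 genes, 1 gene is 14.3% of the set, so these counts are given as a description only. The genes were also long, since 6 of the 7 exceeded the median length of all coding genes (2027 bp), with fox-1 at 14777 bp and sea-2 at 21764 bp. A longer gene has a wider 10 kb surrounding, and the part of length in the count was not tested.

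**Figure D1:**
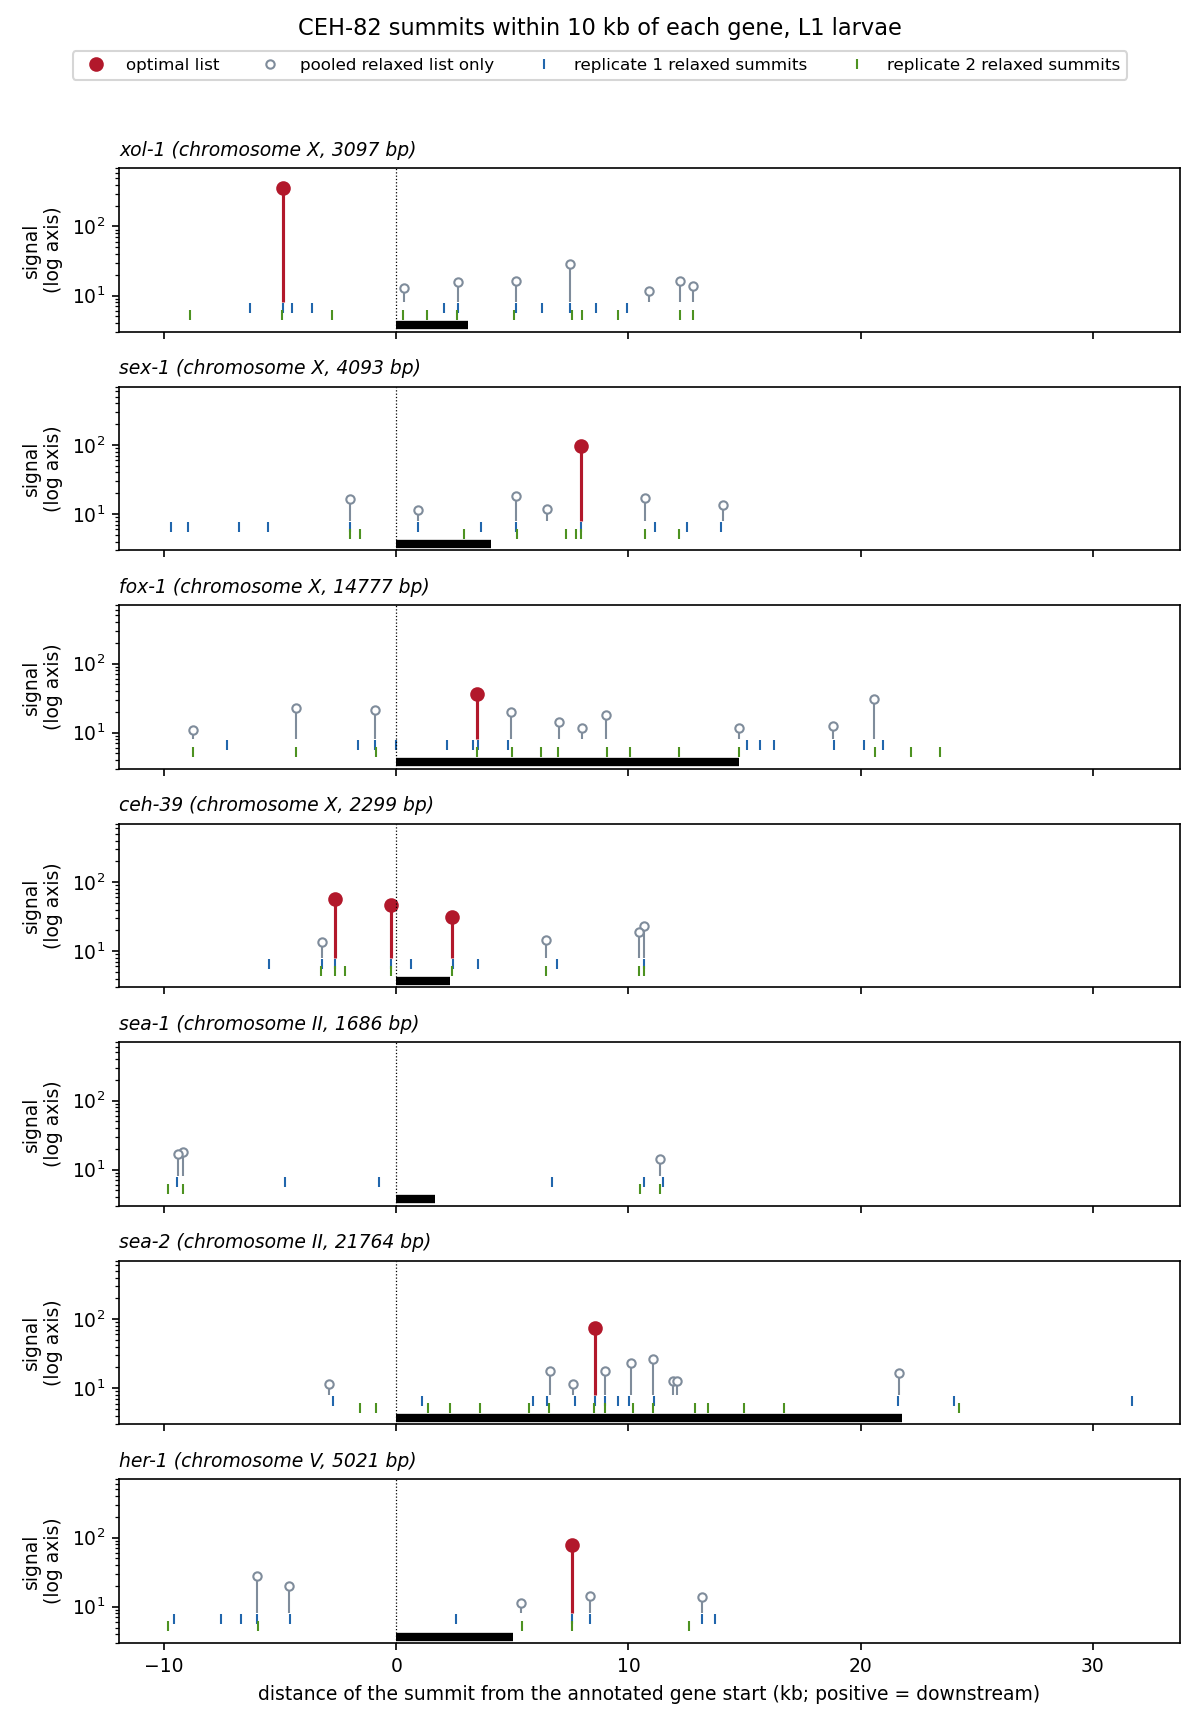
Summits around each of the 7 genes by distance from the gene start in gene orientation (x axis, kb) and signal of the pooled data (y axis, log scale), with filled red points for optimal summits, open grey points for summits of the pooled relaxed list alone, blue and green ticks below for relaxed summits of replicates 1 and 2 (position only), and a black bar for the gene. The xol-1 summit at 4895 bp upstream stands highest at 355, sea-1 has no optimal summit, and ceh-39 has 3.

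**Figure D2:**
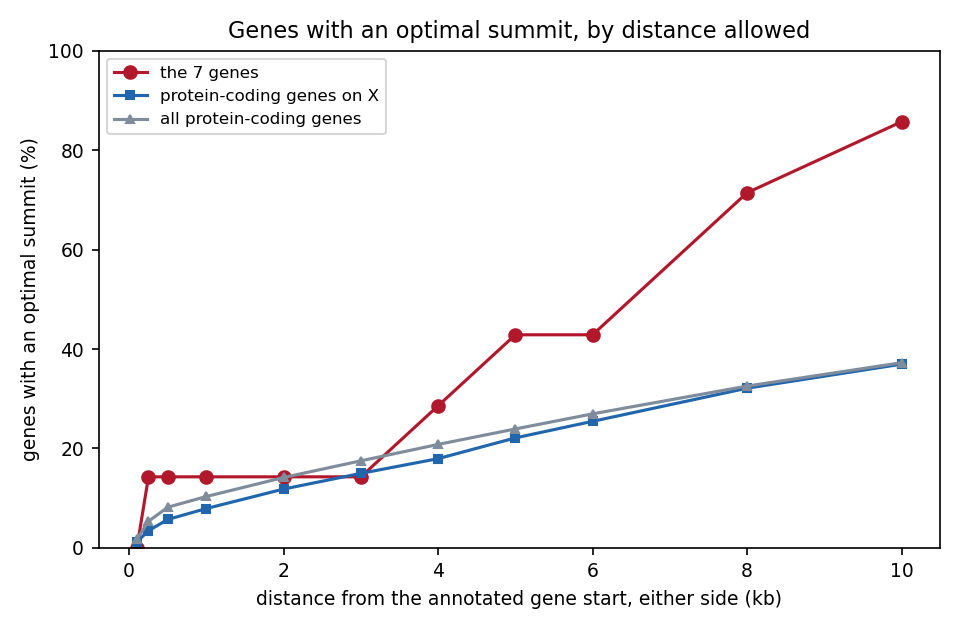
Share of genes (y axis, percent) with an optimal summit within a given distance of the gene start (x axis, kb). The lines show the 7 genes, all protein-coding genes and those on X. At 3000 bp the 7 genes stand at 14.3% against 17.5% of all genes, and at 10000 bp at 85.7% against 37.2%.

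Measured from the start alone, the 7 genes stood at 14.3% at 3000 bp, against 17.5% of all coding genes and 15.0% of those on X. At 5000 bp they reached 42.9%, or 3 genes, against 23.9% and 22.1%. At 10000 bp they reached 85.7%, against 37.2% and 36.9%. In the plot of these shares by distance, the 7 genes lay above all coding genes from 250 to 2000 bp through ceh-39 alone, below them at 100 and 3000 bp, and above them from 4000 bp on. The 7 genes had a mean of 1.14 optimal summits within 10 kb, against 0.581 over all coding genes and 0.593 over those on X. Only ceh-39 had as many as 3, which 3.62% of all coding genes had. Per 100 kb, the surroundings of the 7 genes held 4.15 optimal summits, against 2.34 in the nuclear genome and 2.43 on X.

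The master switch, xol-1 (WBGene00006962, chrX:8041313-8044409, plus strand), encodes a protein of the GHMP kinase fold that represses sdc-2. Its peak was the strongest of the 8, with a signal of 355 and rank 21 of 2346, so that 99.1% of optimal peaks were weaker. In replicate 1 the peak had rank 21 (signal 157) and in replicate 2 rank 20 (signal 191), and the summits of the replicates lay 3 bp to the right and 5 bp to the left of the optimal one. The larger rank was 1.05 times the smaller, and 93.1% of the 2333 optimal peaks found in both replicates had a larger ratio. The peak was therefore placed alike in both replicates, in position and in rank.

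This xol-1 summit lay 4895 bp upstream of the gene, outside any coding gene. The neighbour on the other side, C34D10.1, ended 4804 bp away and pointed towards xol-1, so that xol-1 had the nearest coding start. The annotated start of the non-coding RNA C18A11.13 was closer, at 256 bp. The width of 222 bp was below the 280 bp that 2197 of the 2346 optimal peaks had. At the xol-1 start itself the signal was low. The only relaxed summit of the pooled data there, 352 bp inside the gene, had a signal of 13.0 and rank 13244, and it overlapped a peak of replicate 2 (rank 14707) but none of replicate 1. A further relaxed summit, 7505 bp downstream of the xol-1 start, had a signal of 29.1, below the optimal list. It was the only one of the 44 non-optimal relaxed summits around the 7 genes that ranked within the first 2346 in both replicates, at 2076 and 2145.

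Among the X-signal elements, ceh-39 (WBGene00000460, chrX:1853874-1856172, minus strand), an ONECUT homeodomain gene, had 3 optimal summits. The one at its start lay 224 bp upstream, with a signal of 46.9 and rank 1477 of 2346, and 37.0% of optimal peaks were weaker. It had rank 995 in replicate 1 (signal 28.6) and rank 2107 in replicate 2 (signal 19.3). It was thus present in both replicates but of middling rank. The start of a non-coding RNA on the other strand, T26C11.10, lay 77 bp from the same summit. Of the 1246 optimal peaks with a coding start within 500 bp, that of ceh-39 was number 853 by signal. Next above it was fem-2 (47.0) and next below the shared peak of ZK643.2 and ZK643.5 (46.9).

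The other 2 summits at ceh-39 were closer to other genes. The stronger lay 2618 bp upstream, with a signal of 56.4 and rank 1138 (1119 in replicate 1 and 1275 in replicate 2), and was 29 bp from the start of a tRNA gene (WBGene00023152). Its nearest coding start was that of T26C11.8, at 1932 bp. The weaker lay 106 bp beyond the 3′ end of ceh-39, 81 bp downstream of the start of T26C11.9, with a signal of 31.2 and rank 2313, close to the end of the optimal list. It had rank 1750 in replicate 1 and 4126 in replicate 2, so it was not among the first 2346 of both. Of the 3 summits, only that at 224 bp therefore had ceh-39 as its nearest coding start.

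For sex-1 (WBGene00004786, chrX:10201329-10205421, minus strand), a nuclear hormone receptor that represses xol-1, the peak was the second in signal of the 8. Its signal was 97.9 and its rank 489, with 79.2% of optimal peaks weaker. The replicates differed most here, with rank 302 in replicate 1 (signal 57.4) and rank 1063 in replicate 2 (signal 33.8). The ratio of ranks was 3.52, which 6.30% of matched optimal peaks exceeded. The summit lay 7948 bp downstream of the sex-1 start and 3856 bp beyond the end of the gene. It was 233 bp upstream of nucb-1, a nucleobindin gene, so the peak stood at the start of another gene. Nearer to the sex-1 start, relaxed summits lay 935 bp downstream (signal 11.4) and 1987 bp upstream (signal 16.6), both below the optimal list.

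The third X-signal element, fox-1 (WBGene00001484, chrX:2445117-2459893, minus strand), encodes an RNA-binding protein of the RBFOX family. Its optimal summit lay in an intron, 3490 bp downstream of the gene start, with a signal of 36.0 and rank 1998. The peak had rank 1994 in replicate 1 (signal 16.9) and 2580 in replicate 2 (signal 16.5), just outside the first 2346. fox-1 has 6 annotated transcript starts, and the summit was 347 bp upstream of an internal one. It also fell inside the non-coding RNA R04B3.7, 45 bp from its start. Counted over every transcript start, 2 of the 7 genes (fox-1 and ceh-39), and 2 of the 4 on X, had an optimal summit within 500 bp, against 8.65% of all coding genes and 6.37% of those on X. The summit of fox-1 that came nearest to the optimal list without being in it lay 20560 bp downstream of the start. Its signal was 30.6 and its rank 2365, against 30.9 for the lowest optimal peak, and it overlapped a peak of replicate 2 (rank 1371) and none of replicate 1.

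Of the autosomal signal elements, sea-2 (WBGene00004751, chrII:3950377-3972140, plus strand), a zinc-finger gene, had an optimal summit and sea-1 had none. The sea-2 summit lay in an intron 8571 bp downstream of the start, with a signal of 73.6 and rank 776, and ranks of 748 in replicate 1 (signal 34.5) and 948 in replicate 2 (signal 36.5). None of the 6 transcript starts of sea-2 was within 500 bp, the nearest being 3275 bp away. The strongest of the 9 further relaxed summits around sea-2 lay 11076 bp downstream of the start, with a signal of 26.1 and unequal ranks of 19855 in replicate 1 and 2458 in replicate 2. The T-box gene sea-1 (WBGene00004750, chrII:3671908-3673593, minus strand) had 3 relaxed summits of the pooled data within 10 kb, with signals of 14.3, 17.1 and 18.3. Both upstream ones were more than 9 kb from the gene (9196 and 9414 bp), and the other lay 11368 bp downstream of its start. The upstream pair met the same peak in each replicate, at rank 3885 in replicate 1 and 3433 in replicate 2. The summit of that peak lay 9435 bp upstream in replicate 1 and 9196 bp upstream in replicate 2. Each replicate's summit thus stood by a different summit of the pair. All 3 pooled signals are below the lowest optimal signal of 30.9, which says that no peak passed at this unknown depth and not that binding was absent.

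The male-fate signal her-1 (WBGene00001842, chrV:9697015-9702035, plus strand) had its optimal summit outside the gene. It lay 7581 bp downstream of the start, 2561 bp beyond the gene end and in an intron of xbx-6, whose start was the nearest coding start at 1541 bp. The signal was 77.7 and the rank 720, with ranks of 711 in replicate 1 (signal 35.7) and 815 in replicate 2 (signal 39.8). The her-1 start had no relaxed summit within 500 bp in the pooled data or in either replicate. The strongest of its 5 further relaxed summits lay 6006 bp upstream, with a signal of 28.2 and ranks of 4845 in replicate 1 and 2172 in replicate 2.

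**Figure D3:**
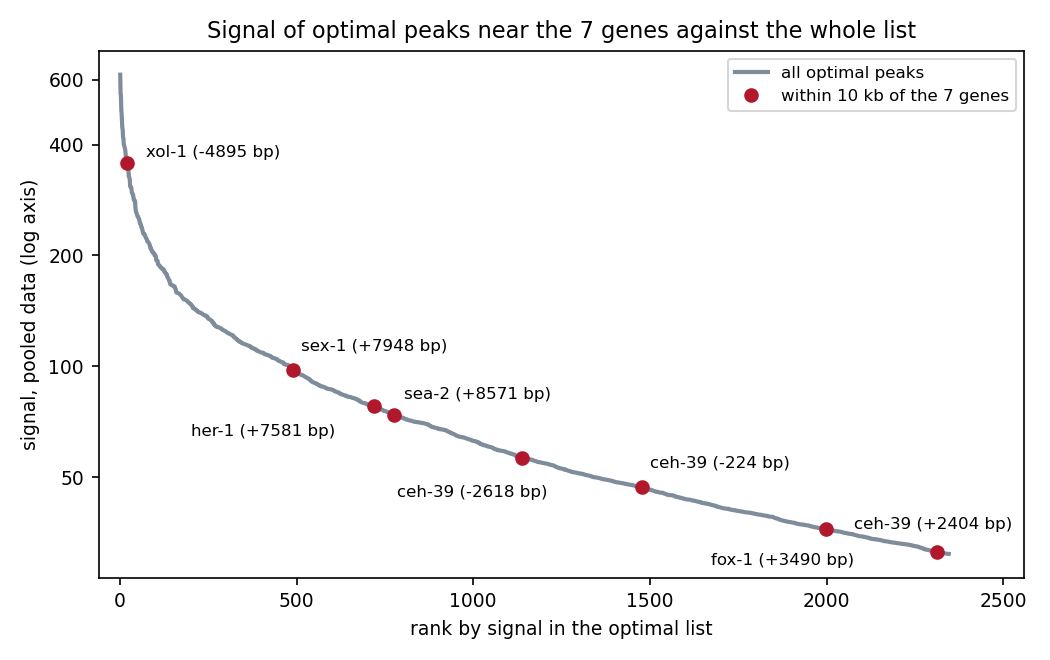
Signal (y axis, log scale) of the optimal peaks in order of rank (x axis), with the 8 peaks near the 7 genes as labelled points and the distance of each from the gene start in bp. The xol-1 peak stands at rank 21, while the other 7 lie between rank 489 (sex-1) and rank 2313 (ceh-39).

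**Figure D4:**
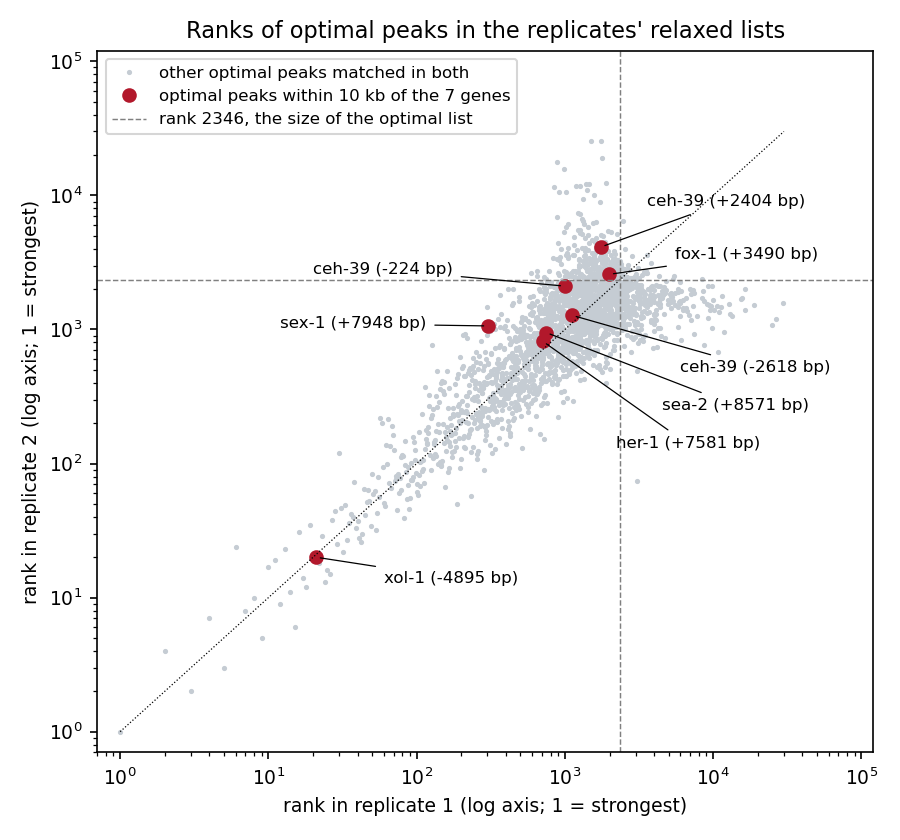
Rank of each optimal peak in replicate 2 (y axis) against its rank in replicate 1 (x axis), both on log axes, for the 2333 peaks found in both, with the 8 peaks near the 7 genes labelled. Dashed lines mark rank 2346, and 6 of the 8 fall inside both.

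Set beside the whole list, the 8 peaks had a median signal of 65.0 (31.2 to 355), against 55.4 (30.9 to 619) over all 2346 optimal peaks and 51.4 over the 431 on X. Above the median of the list were 5 of the 8. The plot of signal against rank shows that this rests on no common level, as the 8 reached from rank 21 to rank 2313. By the plot of ranks in the replicates, 6 of the 8 were among the first 2346 in both replicates, against 75.1% of all optimal peaks, and the exceptions were fox-1 and the weakest ceh-39 peak. A coding start lay within 500 bp of 3 of the 8 summits, against 53.1% of all. The start of a non-coding gene other than a piRNA lay within 500 bp of 4 of the 8 (xol-1, fox-1 and 2 of ceh-39), against 25.8% of all. Outside coding genes were 4 of the 8, against 74.1% of all. One of the 7 genes was itself the nearest coding start for 4 of the 8 (xol-1, fox-1, sea-2 and the ceh-39 start peak).

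Below the optimal list, the relaxed list of the pooled data held 44 further summits within 10 kb of the 7 genes, with signals from 11.0 to 30.6. Of these, 19 overlapped a peak in both replicates, and a replicate peak that met 2 neighbouring summits counted for each. How often the other non-optimal relaxed peaks did so was not counted, so 19 of 44 is given as a description only. Within 500 bp of the start, 2 of the 7 genes (xol-1 and ceh-39), and 2 of the 4 on X, had a pooled relaxed summit, against 27.4% of all coding genes and 27.9% of those on X. The count of 2 of 7 is near the background share, while 2 of 4 on X is above it but rests on 4 genes. The start of fox-1 had a summit in replicate 1 alone, at rank 21540, and it was not in the pooled list.

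Words were searched for on both strands of the 8 windows. Of those listed here, all but GAGAGA were chosen for the protein families of the genes' products and of CEH-82. TAATTA, a homeodomain core, was in 0 of the 8 windows, against 9.93% of all optimal windows. AGGTCA, a nuclear receptor half-site, was also in 0, against 6.22%. ATCGAT was in 2 (xol-1 and her-1), against 16.7%, and ATCAAT, the other ONECUT core, in 1 (the weakest ceh-39 peak), against 23.0%. TCACAC, a T-box half-site, was in 4 (fox-1, sea-2, her-1 and the weakest ceh-39 peak), against 16.3%. GCATG, which is the RNA word of RBFOX proteins, was in 2, against 26.0%. GAGAGA, written TCTCTC on the other strand, was in 4, against 51.0%, and the sea-2 window held 10 matches, some of which overlap. The GC content of the 8 windows had a median of 40.2% (32.7% to 55.0%), against 41.7% over all optimal windows, with xol-1 the lowest and the ceh-39 start peak the highest. The sex-1 window held none of the searched words.

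Another list of sex determination genes was counted in the same way. Of 19, 4 had an optimal summit within 500 bp of the start (21.1%), against 8.18% of all coding genes, and 13 had one within 10 kb (68.4%), against 40.8%. The 4 were sdc-1 and sdc-2, which act in dosage compensation and repress her-1, and fem-1 and fem-2, which promote male fate. As repressors of her-1, sdc-1 and sdc-2 act before it, so the 21.1% does not describe genes downstream of her-1 alone. The sdc-2 summit lay 428 bp upstream with a signal of 77.8 and rank 718, and the sdc-1 summit 365 bp upstream with a signal of 45.3 and rank 1533. The fem-2 summit lay 128 bp upstream (signal 47.0, rank 1475) and the fem-1 summit 5 bp downstream (signal 33.9, rank 2137). The fem-1 peak had rank 4486 in replicate 2, so it was not among the first 2346 of both replicates. sdc-2, the gene that XOL-1 represses, thus had its summit at the start, whereas the xol-1 summit lay 4895 bp from the start. Among 11 relatives of ceh-39, fox-1 and sea-1, 2 had a summit at the start (18.2%), against 8.18% of all coding genes, and 9 had one within 10 kb (81.8%), against 40.8%. The 2 were the ONECUT gene ceh-38 (55 bp downstream, signal 113, rank 369) and asd-1, a relative of fox-1 (479 bp upstream, signal 42.8, rank 1640). In replicate 2 the asd-1 peak had rank 2450, outside the first 2346. ceh-21 and ceh-41, the ONECUT genes beside ceh-39, had none at the start and 3 each within 10 kb. Those of ceh-21 were the same 3 summits as at ceh-39, and those of ceh-41 included some of them. The count of 9 therefore takes in summits already counted at ceh-39. The ceh-38 start summit was also the strongest of the 3 within 10 kb of tra-2, which is among the 19 genes above.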

How the data were processed

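ChIP-seq peak lists of 2 biological replicates (1 group) were analysed on ce11. Per the deposited file descriptions, the authors made a relaxed list of peaks and background for each replicate against a control alignment, another for the pooled replicates, and an optimal list from these by the irreproducible discovery rate. The sources used here name no aligner, peak caller or threshold. The deposited signal (column 7) ranked the peaks, and the deposited score, at its maximum of 3.63 in 2119 optimal peaks, was not used for ranking. The ce10 lists were not used.

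Summits were placed on Ensembl release 115 gene models and RefSeq sequence of WBcel235, with positions from 1 and distances in gene orientation. A summit within 500 bp of a start was counted as at the start. Peaks were matched between lists by an overlap of at least 1 bp. No test was run, since 1 group was measured and the genes and lists were chosen with earlier results of these data known. Named genes were the 7 genes and the nearest coding start of each optimal summit and of some relaxed ones. Also named were the neighbours in signal of a start peak, and listed genes with a start peak or a shared summit. Python 3.11.15, numpy 2.4.6, pandas 2.3.3 and matplotlib 3.10.9 were used, and the counting was tested on simulated summits.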

Additional observations from a re-analysis of the deposited data

How the results depend on the processing

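Of 26 alternatives over 5 counts, 17 left the count within 1.5 times its value and 9 did not, and the cause was not tested. The count of 1 gene with an optimal summit at its start became 2 with the starts of every transcript (fox-1 and ceh-39). All coding genes stood at 8.65% in that setting. With only peaks above the list's median signal the count was 0, against 4.70% of all coding genes. The count of 6 genes with an optimal summit within 10 kb became 3 at 2 kb (fox-1, ceh-39 and sea-2), against 18.2%. The count of 2 genes with a relaxed summit at the start became 1 at 250 bp and 1 upstream only (ceh-39), 4 at 1000 bp (xol-1, sex-1, fox-1 and ceh-39) and 4 with every transcript start (xol-1, fox-1, ceh-39 and sea-2). The 8 optimal peaks became 4 at 2 kb and 5 with only peaks above the median signal. To leave out a replicate, the strongest 2346 relaxed peaks of the other replicate stood in for the optimal list, which was not derived anew. All 30000 relaxed peaks of that other replicate stood in for the pooled relaxed list. Without replicate 1 or without replicate 2 the counts were 1 and 1 at the start, 6 and 6 within 10 kb, 2 and 2 for relaxed summits, and 9 and 9 peaks. For the first 3 of these, the shares of all coding genes were 7.86% and 8.06%, 40.3% and 40.4%, and 35.0% and 35.1%. The 2 genes with a relaxed summit were xol-1 and ceh-39 without replicate 1, and fox-1 and ceh-39 without replicate 2. No paired analysis was possible because both replicates belonged to 1 group. Depth was unknown, so a gene without a peak may lie below detection.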

Other observations

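GCGCAGGGA, seen in the xol-1 window and searched for afterwards, was counted over all optimal windows. On X, 18 of 431 windows held it (4.18%), against 1 of 1915 on the autosomes (0.0522%). Only 2 windows held 2 copies or more, both on X, and that of xol-1 is among them. The 18 windows on X with the word had a median signal of 259, against 50.2 for the 413 on X without it, and 9 of the 20 strongest X windows held it. The xol-1 peak ranked 11 among the X peaks. Over the whole assembly the word occurred 34 times on X (1.92 per Mb) and 79 times on the autosomes (0.957 per Mb). Of these copies, 20 on X (58.8%) and 1 on the autosomes (1.27%) lay in windows of the optimal list. What brings ChIP signal to these sites was not tested.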
